A study of Homo sapiens with 6 samples.

Results

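The genes described here are the cytochrome P450s, the UDP-glucuronosyltransferases (UGTs) and the cytosolic sulfotransferases (SULTs) of human hepatoma cells, the PLC/PRF/5 line, in cultures given an ARD1 plasmid and in cultures given a control vector. A gene was taken when it codes for protein, when its symbol starts with CYP and a digit (CYP51A1 aside), with UGT1A, with UGT2 or with SULT and a digit, and when its counts summed to 30 or more over the 6 libraries. This gave 42 of the 25071 genes of the table: 25 P450s, 11 UGTs, of which 7 are UGT1A and 4 are UGT2 genes, and 6 SULTs. The table lists 68 protein-coding genes with such symbols, and 26 fell short of 30 counts. Just inside the threshold were CYP27C1 with 30 counts, CYP2F1 with 38, SULT1A1 with 41 and UGT2B11 with 52. Just outside were UGT2B17 with 26, CYP2C19 with 22, CYP2A6 with 21, CYP2C8 with 20, CYP4X1 with 18 and CYP3A4 with 17. The difference between the groups did not enter the rule, but a gene near the threshold that was counted mainly in 1 group entered through that group. SULT1B1, SULT2B1, UGT2A3, UGT2B11 and CYP2J2 reached 30 counts only through the control libraries, and SULT1A3 and SULT1C4 only through the ARD1 libraries. The direction of these genes is thus tied in part to the rule.

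ARD1, also called NAA10, is an enzyme that acetylates the N-termini of new proteins. Total RNA was sequenced 48 h after transfection from 3 samples given the ARD1 plasmid and 3 given the control vector, all of the same cell line. Separate cultures are not stated for the replicates, and the p-values then reflect only how far these libraries scatter, which may be technical. The promoter of the plasmid and the share of cells transfected are not stated either.

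P450s are heme enzymes that insert oxygen into drugs, fatty acids, sterols and vitamins, drawing electrons from NADPH through a reductase or, in mitochondria, through a ferredoxin. UGTs of the endoplasmic reticulum then attach glucuronic acid, and cytosolic SULTs attach sulfate, to make products that transporters carry out of the cell. In the liver the genes of these enzymes are under the control of hepatocyte factors such as HNF4A and of receptors that sense small molecules, among them AHR, PXR (NR1I2), CAR (NR1I3) and the vitamin D receptor.

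The 7 UGT1A genes lie in 1 locus on chromosome 2, where each has a first exon and promoter of its own and all use the same last exons. Promoter windows of 300 bases, from 250 before to 50 after a start, were read from RefSeq (GRCh38.p14) for the 33 of 42 genes that the promoter table holds, with 45 windows among them. The windows below are shown because 3 of the UGT1A windows share the letters GTTAAT on either strand and because the CYP1A1 window holds GCGTG, the core that AHR binds with ARNT. Capitals mark GTTAAT or its reverse complement in the UGT1A windows and GCGTG in the CYP1A1 window, and all windows read 5′ to 3′ on the gene's own strand, which is plus for the UGT1A genes and minus for CYP1A1. The UGT1A1 window is chr2:233760020-233760319, the UGT1A3 window chr2:233728792-233729091, the UGT1A6 window at the second of its 2 listed starts chr2:233692640-233692939, the UGT1A8 window, which holds no GTTAAT, chr2:233617383-233617682, and the CYP1A1 window chr15:74725479-74725778.
UGT1A1: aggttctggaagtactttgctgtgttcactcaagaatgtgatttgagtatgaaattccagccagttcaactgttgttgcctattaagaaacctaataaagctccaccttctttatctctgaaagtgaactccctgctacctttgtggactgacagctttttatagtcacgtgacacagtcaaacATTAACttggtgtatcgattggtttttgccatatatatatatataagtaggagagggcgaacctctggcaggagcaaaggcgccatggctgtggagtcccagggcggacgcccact
UGT1A3: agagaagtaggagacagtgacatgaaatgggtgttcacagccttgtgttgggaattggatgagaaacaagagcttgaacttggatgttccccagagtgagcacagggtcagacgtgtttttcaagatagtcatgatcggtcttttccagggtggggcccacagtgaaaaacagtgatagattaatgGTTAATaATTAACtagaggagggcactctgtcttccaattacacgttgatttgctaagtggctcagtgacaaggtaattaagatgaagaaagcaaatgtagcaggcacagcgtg
UGT1A6: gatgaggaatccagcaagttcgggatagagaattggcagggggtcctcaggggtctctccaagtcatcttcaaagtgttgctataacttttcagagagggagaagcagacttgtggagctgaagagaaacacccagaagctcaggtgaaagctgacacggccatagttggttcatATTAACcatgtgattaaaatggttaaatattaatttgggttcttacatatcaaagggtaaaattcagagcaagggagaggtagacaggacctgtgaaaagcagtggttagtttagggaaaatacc
UGT1A8: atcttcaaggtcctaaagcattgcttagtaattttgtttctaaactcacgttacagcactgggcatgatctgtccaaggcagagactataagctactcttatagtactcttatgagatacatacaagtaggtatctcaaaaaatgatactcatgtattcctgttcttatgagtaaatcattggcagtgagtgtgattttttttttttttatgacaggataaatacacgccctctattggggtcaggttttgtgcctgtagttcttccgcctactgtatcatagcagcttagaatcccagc
CYP1A1: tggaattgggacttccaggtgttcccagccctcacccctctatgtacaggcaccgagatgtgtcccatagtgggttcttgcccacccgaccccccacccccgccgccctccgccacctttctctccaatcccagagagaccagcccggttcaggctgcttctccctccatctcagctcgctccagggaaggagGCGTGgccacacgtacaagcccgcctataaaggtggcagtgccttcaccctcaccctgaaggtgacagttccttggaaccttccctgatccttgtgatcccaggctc
In UGT1A1 the 6 letters stand 66 to 61 bases before the start, and in UGT1A6 75 to 70 bases before it, both on the opposite strand. UGT1A3 holds them at 64 to 59 bases before its start on its own strand and at 57 to 52 on the other. Over all 35116 promoter windows in that table the share with GTTAAT is 6.88%. Among these genes 4 of the 45 windows hold it, the fourth being that of CYP3A5. GCGTG stands 57 to 53 bases before the CYP1A1 start, and it is found in 36.5% of all windows and in 13 of the 45, the printed windows of UGT1A3 and UGT1A8 included, where it is not in capitals. A further 9 motifs were searched on both strands. The shares of all windows and the numbers of the 45 were 11.5% and 10 for TATAAA, 13.8% and 11 for AGGTCA, 10.4% and 8 for AGTTCA, 11.4% and 6 for AAAGTC, 4.95% and 2 for TGACTCA, and 41.8% and 16 for TGANNNNGC. ATTGCGCAA (0.0228% of all windows) and the direct repeat of AGGTCA with a single base between (0.0655%), which overlaps AGGTCA, were in none of the 45, and CAAAGTCCA (0.384%), which contains AAAGTC, was in 2. A match describes the letters only.

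The libraries held 21857327 to 24423503 counts in the ARD1 group and 22715392 to 25011357 in the control group. Levels are given as CPM (library-size-scaled counts, with TMM factors), and 3 counts, the smallest number read here as detection, correspond to 0.112 to 0.125 CPM in the ARD1 libraries and 0.135 to 0.142 CPM in the control libraries, which covers counting error only. NAA10 itself had 355, 399.7 and 294 CPM in the ARD1 libraries, against 35.5, 32.1 and 36.2 CPM in the control libraries. Control replicate 1 differed more from its group than any other library: chi-square over degrees of freedom was 17.4 and 20.2 for its pairs, 2.97 for controls 2 and 3, and 2.51 to 4.35 within the ARD1 group. Of 12 hepatocyte markers 11 were in the table, and their summed level was 197 to 221 CPM in the ARD1 libraries and 734 to 769.9 CPM in the control libraries. ALB, FGB and TF carried most of it. Of 8 hepatocyte markers tested, 5 were lower, among them ALB (log2 fold change -3.12), TF (-3.22) and FGB (-0.96), and 2 were higher, SERPINA1 (2.16 CPM in the ARD1 libraries and 0.535 CPM in the control libraries) and APOB (log2 fold change 0.33, which did not pass without any 1 of the 6 libraries). APOA1 averaged 0.236 CPM in the ARD1 libraries and 0.261 CPM in the control libraries, TTR was at 0 in every ARD1 library, and GPC3 was at 0 in every control library. Part of the hepatocyte list was thus at or near 0 in these hepatoma cells. Summed levels were 136 to 144 CPM in the ARD1 libraries and 493 to 631 CPM in the control libraries for biliary markers, 90.1 to 103 CPM in the ARD1 libraries and 69.9 to 82.6 CPM in the control libraries for endothelial markers, 18.2 to 20.6 CPM in the ARD1 libraries and 78.0 to 98.7 CPM in the control libraries for stromal markers and 9.03 to 10.2 CPM in the ARD1 libraries and 17.1 to 19.5 CPM in the control libraries for immune markers. Of these markers, CFTR was at 0 in every ARD1 library, EPCAM averaged 0.273 CPM in the ARD1 libraries and 0.289 CPM in the control libraries, and PTPRC averaged 0.0528 CPM in the ARD1 libraries and 1.74 CPM in the control libraries. All 3 biliary markers tested were lower, KRT19, KRT7 and SOX9 (log2 fold changes -2.24, -1.42 and -0.31), SOX9 not with library totals alone. Of 5 stromal markers tested, COL3A1 and LUM were lower (-4.80 and -2.01) and COL1A1 was higher (1.55). DCN and PDGFRB did not pass. Of 4 endothelial markers tested, 3 were higher, KDR and PECAM1 with log2 fold changes of 2.05 and 0.82 and VWF with 1.40 CPM in the ARD1 libraries and 0.0299 CPM in the control libraries, and CDH5 was lower, at 0.0676 CPM in the ARD1 libraries and 33.1 CPM in the control libraries. Over all genes tested, 32.2% were lower and 32.4% higher. The part of these marker differences in the results below was not tested.

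Most of the tested enzymes were lower in the ARD1 libraries, the UGTs nearly without exception and the P450s less often. Of the 42 genes, 39 passed the filter on low counts and were tested, and SULT1A1, CYP27C1 and CYP2F1 did not. With edgeR's quasi-likelihood test and Benjamini-Hochberg adjustment over all 15816 genes tested, which is the adjusted p used throughout, 29 of the 39 (74.4%) passed 0.05, against 64.6% of all genes. Of these, 23 (59.0%) were lower in the ARD1 libraries, where 32.2% of all genes were, and 6 (15.4%) were higher, where 32.4% were. The median log2 fold change, ARD1 over control, was -0.86 over the 39 and 0.03 over all genes. A log2 fold change of -1 or less was reached by 17 of them (11.8% of all genes) and one of 1 or more by 3 (9.71% of all genes). In 24 genes every ARD1 library lay below every control library and in 8 every ARD1 library lay above, where the shares over all genes were 34% and 35.6%. The groups were thus apart in 32 of the 39, against 69.6% of all genes. All these counts, and those by family below, include genes whose direction is tied in part to the count rule. SULT1B1, SULT2B1, UGT2A3, UGT2B11 and CYP2J2 are among the lower genes, and SULT1C4 is among the higher. No count without them is given, so the comparison with all genes rests in part on the rule. The 7 UGT1A genes share exons and are not independent. With all UGT1A genes of the table counted as 1 summed gene, 33 tested genes remain, 18 of them lower and 6 higher. By family, 10 of 23 tested P450s were lower (43.5%) and 5 were higher (21.7%), with a median log2 fold change of -0.06. Of the UGTs 10 of 11 were lower, and of the tested SULTs 3 of 5. In bulk RNA, fewer cells that express a gene and less RNA per cell cannot be told apart.

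**Figure D1:**
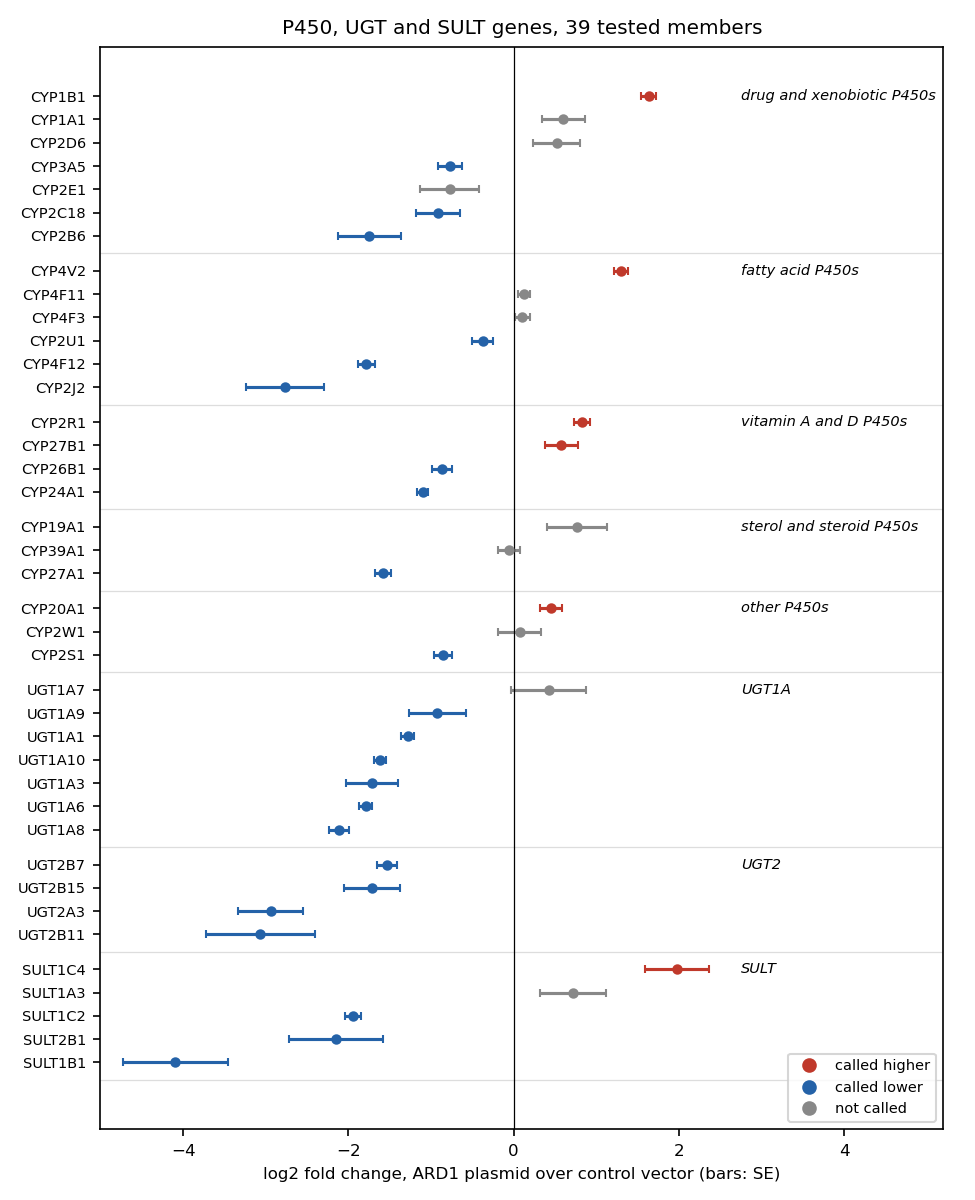
The log2 fold change of ARD1 plasmid over control vector (horizontal axis, bars are standard errors) is shown for each of the 39 tested genes, grouped by role and coloured by call. The 10 UGTs called lower lie left of 0, SULT1C4 lies farthest right at 1.97, and SULT1B1 lies farthest left at -4.10. Both of these SULTs met the count rule only through the group where they were higher.

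Summed over each family, the P450s had 549, 584 and 531 CPM in the ARD1 libraries, against 693, 696 and 687 CPM in the control libraries. The UGT1A genes summed to 167, 163 and 156 CPM in the ARD1 libraries and to 512, 506 and 471 CPM in the control libraries, and the UGT2 genes to 6.40, 8.09 and 8.17 CPM against 23.1, 23.4 and 24.4 CPM. The SULTs summed to 41.3, 38.5 and 42.3 CPM in the ARD1 libraries, against 128, 163 and 163 CPM in the control libraries. With TMM factors the ARD1 libraries lay below all controls in each family, by a far smaller margin in the P450s than in the conjugating families. These factors lower every ARD1 sum and raise every control sum. With library totals alone the P450 sums overlap between the groups, and those of the conjugating families do not. Within the sums, UGT1A10 held 48.6% to 51.9% of UGT1A counts in the ARD1 libraries and 49.6% to 50.5% in the control libraries, and SULT1C2 92.8% to 95.5% and 96.9% to 98.3% of SULT counts. CYP24A1 held 14.2% to 14.7% of the P450 counts in the ARD1 libraries and 24.4% to 25.5% in the control libraries.

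**Figure D2:**
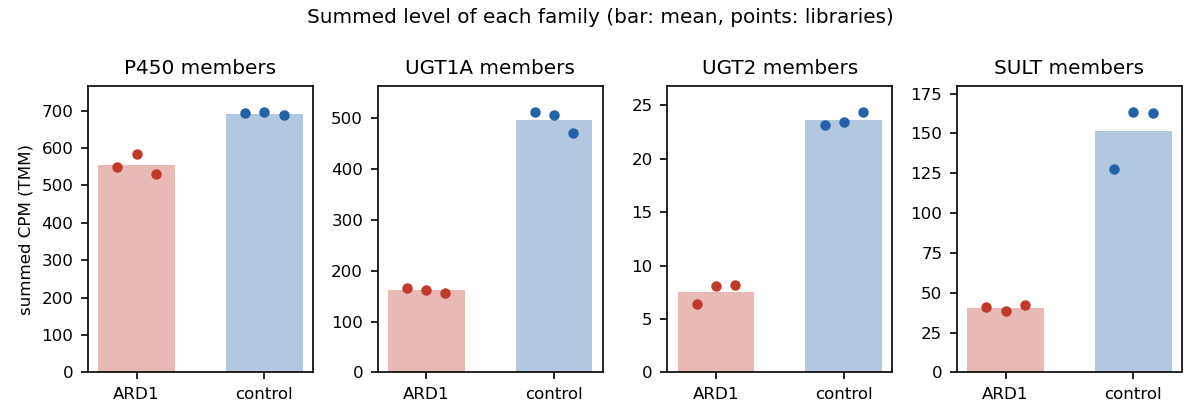
Summed TMM-scaled CPM of the P450, UGT1A, UGT2 and SULT genes is plotted per library (points) with the group mean (bar), ARD1 left and control right, on a vertical axis from 0 in each panel. The UGT1A sum was 156 to 167 CPM in the ARD1 libraries and 471 to 512 CPM in the control libraries.

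Per kilobase of exon, which allows levels to be compared between genes, the 8 highest averaged over both groups were UGT1A10, CYP24A1, CYP27A1, CYP2S1, CYP4F11, UGT1A6, UGT1A1 and CYP1B1. The order differed between the groups. In the ARD1 libraries these stood, from high to low, UGT1A10 at 25.7, CYP4F11 at 22.3, CYP24A1 at 20.1, CYP1B1 at 17.9, CYP2S1 at 15.5, CYP27A1 at 12.9, UGT1A1 at 7.73 and UGT1A6 at 6.82 CPM per kilobase. In the control libraries the order was UGT1A10 at 78.9, CYP24A1 at 43.2, CYP27A1 at 38.7, CYP2S1 at 28.1, UGT1A6 at 23.6, CYP4F11 at 20.5 and UGT1A1 at 18.8 CPM per kilobase. CYP1B1 stood at 5.74 in the control libraries, below SULT1C2 at 17.6, UGT1A8 at 15.7, CYP3A5 at 8.72 and UGT2B7 at 8.68. The exon lengths of the UGT1A genes include the shared exons, and UGT1A3 has no length in GENCODE 29 by its identifier. The main drug-metabolising P450 of adult liver, CYP3A4, was under the count threshold with 17 counts in all, as were CYP2C8, CYP2C19 and CYP2A6.

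Among the 8 P450s that act mainly on foreign compounds, 7 were tested, 1 was higher (14.3%) and 3 were lower (42.9%). Over all genes 32.4% were higher and 32.2% lower, and these shares apply to each role below. The median log2 fold change of the 7 was -0.77. CYP1B1 (ENSG00000138061, chromosome 2, 38066973 to 38109902, minus strand, GRCh38 with GENCODE 29, as for all positions of genes here), which oxidises polycyclic hydrocarbons and estradiol and is a known AHR target, had 104, 117 and 101 CPM in the ARD1 libraries, against 30.8, 37.0 and 35.8 CPM in the control libraries. The groups did not overlap, and CYP1B1 rose 3.11-fold (log2 fold change 1.64, SE 0.0903, adjusted p = 9.67e-10). CYP1A1 (ENSG00000140465, chromosome 15, 74719542 to 74725610, minus strand), the best known AHR target, had 5.52, 12.2 and 7.73 CPM in the ARD1 libraries, against 7.82, 5.03 and 3.95 CPM in the control libraries. Its groups overlapped, since ARD1 replicate 1 lay below control replicate 1, and it did not pass (log2 fold change 0.60, SE 0.264, adjusted p = 0.0578). CYP1A1 passed without control replicate 1 (log2 fold change 0.92, adjusted p = 0.000243) and without ARD1 replicate 1 (log2 fold change 0.83, adjusted p = 0.00919). It also passed with library totals alone (log2 fold change 0.87, adjusted p = 0.0139), with GC and length offsets (log2 fold change 0.77, adjusted p = 0.00591) and with no filter (log2 fold change 0.59, adjusted p = 0.00920), in a range of adjusted p over all settings of 0.000243 to 0.421. The count ratio of CYP1B1 to CYP1A1 within a library was 9.65 to 18.8 in the ARD1 libraries and 3.94 to 9.08 in the control libraries. Of the exon bases of CYP1B1, 12.9% lie opposite CYP1B1-AS1 and RMDN2. CYP1B1-AS1 was higher as well (log2 fold change 1.74, SE 0.228, adjusted p = 9.64e-06), and because the strand setting of the counting is not given, reads of CYP1B1 and its antisense partner cannot be told apart where they overlap. The ratio of the 2 overlapped between the groups, at 23.8 to 29.95 in the ARD1 libraries and 26.9 to 33.9 in the control libraries.

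CYP3A5 (ENSG00000106258, chromosome 7, 99648194 to 99680026, minus strand), which oxidises many of the drugs that CYP3A4 does, had 34.6, 34.3 and 35.1 CPM in the ARD1 libraries, against 41.0, 66.9 and 69.0 CPM in the control libraries. All ARD1 libraries lay below all controls, control replicate 1 lay well below the other controls, and CYP3A5 fell (log2 fold change -0.77, SE 0.145, adjusted p = 0.000311). CYP2B6 (ENSG00000197408, chromosome 19, 40991250 to 41018398, plus strand), a target of the receptors CAR and PXR, had 0.669, 0.337 and 0.282 CPM in the ARD1 libraries, against 1.77, 1.47 and 1.08 CPM in the control libraries. It fell (log2 fold change -1.75, SE 0.379, adjusted p = 0.000927) without overlap, and its ARD1 levels were only a few times that of 3 counts. Its near-identical pseudogene CYP2B7P moved the other way, with 3.85, 4.38 and 3.66 CPM in the ARD1 libraries, against 1.36, 1.66 and 1.08 CPM in the control libraries (log2 fold change 1.54, SE 0.218, adjusted p = 2.06e-05). The count ratio of CYP2B6 to CYP2B7P was 0.0769 to 0.174 in the ARD1 libraries and 0.886 to 1.30 in the control libraries, and since it is not known how reads were divided between the copies, both values are uncertain. CYP2C18 fell (log2 fold change -0.92, SE 0.271, adjusted p = 0.00830) at means of 1.09 CPM in the ARD1 libraries and 2.06 CPM in the control libraries, and 38.5% of its exon bases overlap another gene on the same strand. CYP2E1, the ethanol-oxidising P450, averaged 0.488 CPM in the ARD1 libraries and 0.841 CPM in the control libraries and did not pass (log2 fold change -0.77, SE 0.355, adjusted p = 0.0688), although its groups did not overlap. It passed with GC and length offsets (log2 fold change -0.84, adjusted p = 0.0492), in a range of 0.0492 to 0.231, and 23.9% of its exon bases lie opposite SYCE1. CYP2D6, which oxidises many amine drugs, averaged 1.43 CPM in the ARD1 libraries and 0.998 CPM in the control libraries and did not pass either (log2 fold change 0.52, SE 0.283, adjusted p = 0.119), again with no overlap. CYP2D6 passed with library totals alone (log2 fold change 0.79, adjusted p = 0.0224) and with GC and length offsets (log2 fold change 0.94, adjusted p = 0.00819), in a range of 0.00819 to 0.316. Its count ratio to the pseudogene CYP2D7 overlapped between the groups. CYP2F1 was not tested, with 5, 3 and 16 counts in the ARD1 libraries, against 5, 8 and 1 counts in the control libraries.

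**Figure D3:**
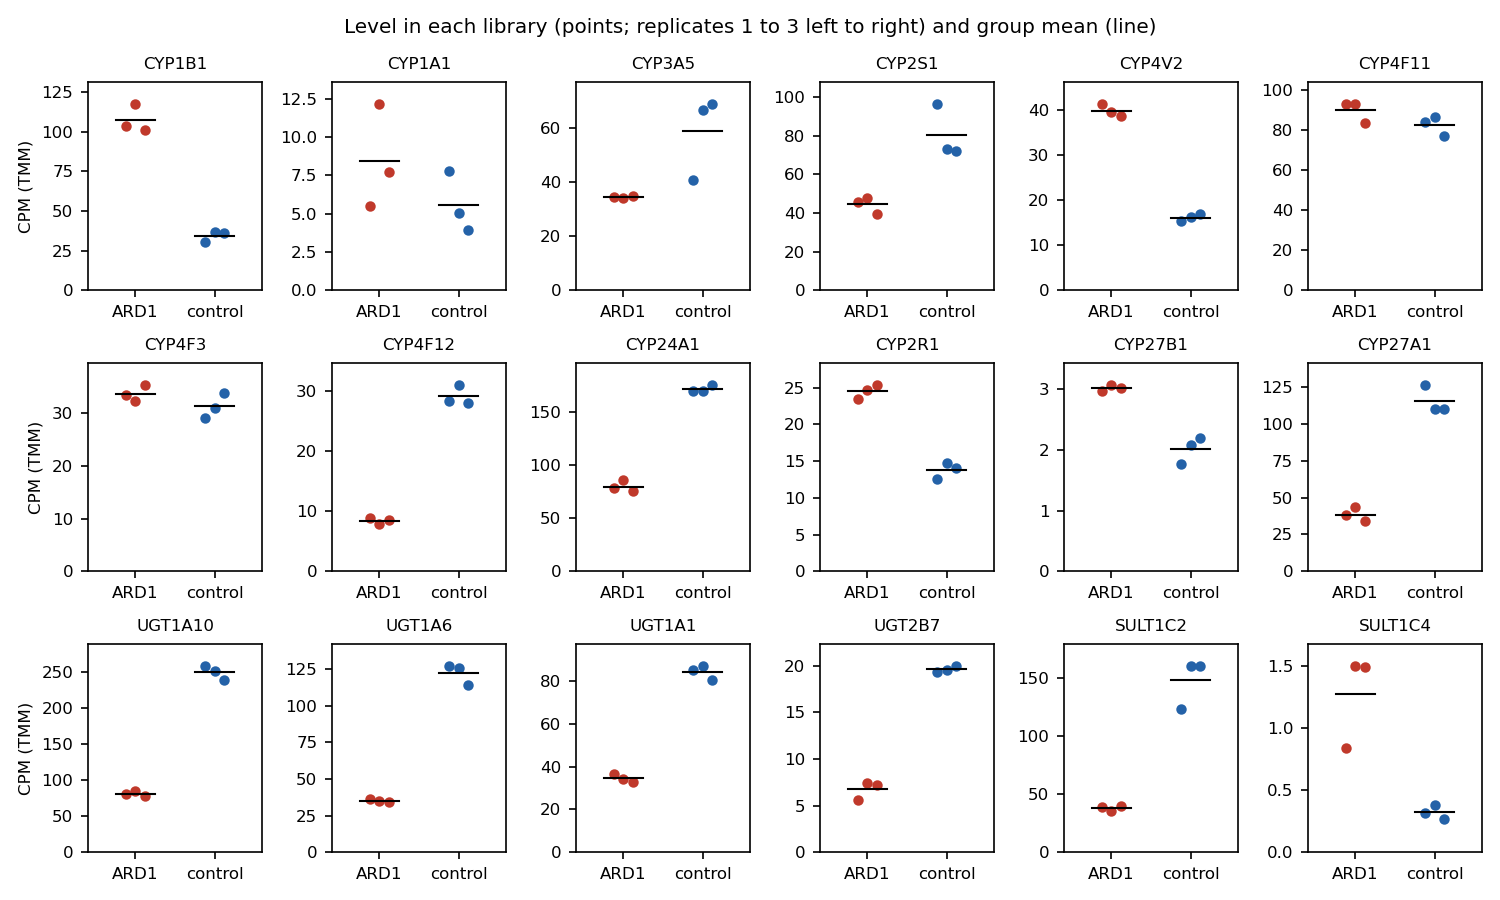
TMM-scaled CPM in each library (points, replicates 1 to 3 from left to right) and the group mean (line) are shown for 18 genes, ARD1 left and control right, each panel with its own vertical axis from 0. CYP1B1, CYP4V2, CYP2R1, CYP27B1 and SULT1C4 lie higher in all 3 ARD1 libraries, while CYP1A1, CYP4F11 and CYP4F3 overlap between the groups.

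The 6 P450s that act on fatty acids and eicosanoids held 1 gene that rose (16.7%) and 3 that fell (50%), with a median log2 fold change of -0.13. CYP4V2 (ENSG00000145476, chromosome 4, 186191520 to 186213456, plus strand), a fatty acid hydroxylase whose loss causes a crystalline retinal dystrophy, had 41.3, 39.5 and 38.5 CPM in the ARD1 libraries, against 15.4, 16.2 and 16.8 CPM in the control libraries. Every ARD1 library lay above every control, a rise of 2.46-fold (log2 fold change 1.30, SE 0.0877, adjusted p = 8.36e-09). The CYP4F genes neighbour each other on chromosome 19, and 1 of those counted here fell. CYP4F12 (ENSG00000186204, chromosome 19, 15672757 to 15697174, plus strand) had 8.86, 7.94 and 8.53 CPM in the ARD1 libraries, against 28.3, 31.0 and 27.9 CPM in the control libraries. It fell with no overlap (log2 fold change -1.78, SE 0.101, adjusted p = 1.22e-09). CYP4F3 (ENSG00000186529, chromosome 19, 15640897 to 15662825, plus strand), which inactivates leukotriene B4, and CYP4F11 (ENSG00000171903, chromosome 19, 15912367 to 15934867, minus strand), which hydroxylates long-chain fatty acids, did not pass. CYP4F11 had 92.9, 93.1 and 83.7 CPM in the ARD1 libraries, against 84.0, 86.6 and 77.0 CPM in the control libraries, with overlap between the groups (log2 fold change 0.12, SE 0.0767, adjusted p = 0.170). CYP4F3 averaged 33.7 ± 1.55 CPM in the ARD1 libraries and 31.3 ± 2.38 CPM in the control libraries (SD, n = 3 each) (log2 fold change 0.10, adjusted p = 0.311). Both passed as higher when library totals alone were used (CYP4F11 log2 fold change 0.39, adjusted p = 0.000456, and CYP4F3 log2 fold change 0.37, adjusted p = 0.00385), and CYP4F11 also with GC and length offsets (log2 fold change 0.25, adjusted p = 0.000888), in ranges over all settings of 0.000456 to 0.657 and 0.00385 to 0.628. Within a library the count ratio of CYP4F12 to CYP4F11 was 0.0852 to 0.102 in the ARD1 libraries and 0.337 to 0.363 in the control libraries, and that of CYP4F12 to CYP4F3 was 0.241 to 0.266 in the ARD1 libraries and 0.826 to 0.998 in the control libraries. These ratios need no scaling between libraries, and neither overlapped between the groups.

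CYP2J2 (ENSG00000134716, chromosome 1, 59893308 to 59926790, minus strand), the epoxygenase that makes epoxyeicosatrienoic acids from arachidonic acid, had 0.0418, 0.337 and 0.322 CPM in the ARD1 libraries, against 1.36, 1.23 and 2.33 CPM in the control libraries. ARD1 replicate 1 held a single count, all ARD1 libraries lay below all controls, and CYP2J2 fell (log2 fold change -2.77, SE 0.473, adjusted p = 0.000121). CYP2J2 met the count rule only through the controls. CYP2U1, a fatty acid hydroxylase, averaged 7.01 ± 0.406 CPM in the ARD1 libraries and 9.09 ± 0.822 CPM in the control libraries (SD, n = 3 each) and fell by 0.37 on the log2 scale (adjusted p = 0.0173). That call was lost without control replicate 2 (log2 fold change -0.33, adjusted p = 0.0589), without ARD1 replicate 2 (log2 fold change -0.33, adjusted p = 0.0675) and with library totals alone (log2 fold change -0.11, adjusted p = 0.453), in a range of 0.00311 to 0.453.

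The 4 P450s of vitamin A and D turnover all passed, 2 higher and 2 lower. Among these 4, CYP2R1 and CYP27B1 were higher, and CYP24A1 and CYP26B1 were lower. Each gene was placed in 1 role only, and CYP27A1, given below with the sterol P450s, fell. CYP2R1 (ENSG00000186104, chromosome 11, 14877440 to 14892252, minus strand), a liver enzyme of the first hydroxylation step of vitamin D, had 23.5, 24.7 and 25.4 CPM in the ARD1 libraries, against 12.6, 14.7 and 14.1 CPM in the control libraries. It rose with no overlap (log2 fold change 0.83, SE 0.0979, adjusted p = 3.36e-06). CYP27B1 (ENSG00000111012, chromosome 12, 57762334 to 57768986, minus strand), which makes the active hormone, had 2.97, 3.07 and 3.02 CPM in the ARD1 libraries, against 1.77, 2.09 and 2.20 CPM in the control libraries. All ARD1 libraries lay above all controls, and CYP27B1 passed (log2 fold change 0.58, SE 0.199, adjusted p = 0.0192), but not without control replicate 1 (log2 fold change 0.48, adjusted p = 0.0627) or with DESeq2 (log2 fold change 0.56, adjusted p = 0.0859), in a range of 0.00168 to 0.0859. CYP24A1 (ENSG00000019186, chromosome 20, 54153449 to 54173973, minus strand), which inactivates the hormone and is a classic target of the vitamin D receptor, had 78.0, 85.8 and 75.7 CPM in the ARD1 libraries, against 169, 169.9 and 175 CPM in the control libraries. It fell with no overlap (log2 fold change -1.103, SE 0.0721, adjusted p = 5.94e-09). The count ratio of CYP24A1 to CYP27B1 was 25.1 to 27.9 in the ARD1 libraries and 79.8 to 95.5 in the control libraries. VDR, the receptor itself, was singled out after its values were seen: it averaged 22.7 ± 2.47 CPM in the ARD1 libraries and 8.23 ± 0.352 CPM in the control libraries (SD, n = 3 each) and rose (log2 fold change 1.46, SE 0.113, adjusted p = 3.51e-08). CYP26B1, which degrades retinoic acid, averaged 8.26 ± 0.773 CPM in the ARD1 libraries and 15.1 ± 1.80 CPM in the control libraries (SD, n = 3 each) and fell (log2 fold change -0.86, SE 0.124, adjusted p = 2.31e-05).

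Of the 3 P450s of sterol, bile acid and steroid metabolism, 1 fell and none rose. CYP27A1 (ENSG00000135929, chromosome 2, 218781749 to 218815293, plus strand), the mitochondrial sterol hydroxylase of bile acid synthesis, had 37.9, 43.4 and 34.2 CPM in the ARD1 libraries, against 126, 109.8 and 110.3 CPM in the control libraries. The groups did not overlap, and CYP27A1 fell (log2 fold change -1.58, SE 0.0943, adjusted p = 2.18e-09). CYP39A1, an oxysterol hydroxylase, averaged 6.69 ± 0.365 CPM in the ARD1 libraries and 6.95 ± 0.582 CPM in the control libraries (SD, n = 3 each) and did not pass (log2 fold change -0.06, SE 0.132, adjusted p = 0.723), and its sign turned with library totals alone (log2 fold change 0.21, adjusted p = 0.182). CYP19A1, the aromatase that makes estrogens, had 2.47, 2.81 and 1.93 CPM in the ARD1 libraries, against 0.455, 2.04 and 1.75 CPM in the control libraries. Control replicate 1 was low, ARD1 replicate 3 lay below control replicate 2, and CYP19A1 did not pass (log2 fold change 0.77, SE 0.362, adjusted p = 0.0759). It passed without control replicate 2 (log2 fold change 1.097, adjusted p = 0.0293), with library totals alone (log2 fold change 1.02, adjusted p = 0.0342) and with no filter (log2 fold change 0.75, adjusted p = 0.0291). Without control replicate 1 the difference was smaller, with a log2 fold change of 0.33, adjusted p = 0.266, in a range of 0.0201 to 0.266. Of other sterol and steroid P450s in the table, CYP8B1, CYP11A1, CYP17A1, CYP21A2 and CYP46A1 were under the count threshold.

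Among 4 P450s of less settled function, CYP2S1 (ENSG00000167600, chromosome 19, 41193049 to 41207539, plus strand) had 46.0, 48.0 and 39.7 CPM in the ARD1 libraries, against 96.5, 73.2 and 72.2 CPM in the control libraries. Control replicate 1 was the highest library, no ARD1 library reached a control, and CYP2S1 fell (log2 fold change -0.85, SE 0.110, adjusted p = 8.25e-06). CYP20A1, with no settled substrate, had 11.6, 12.5 and 11.7 CPM in the ARD1 libraries, against 7.68, 10.7 and 7.81 CPM in the control libraries. It rose (log2 fold change 0.45, SE 0.136, adjusted p = 0.00906), with no overlap, though not without control replicate 3 (log2 fold change 0.35, adjusted p = 0.0511), in a range of 0.000843 to 0.0511. CYP2W1 averaged 1.43 ± 0.233 CPM in the ARD1 libraries and 1.36 ± 0.0420 CPM in the control libraries (SD, n = 3 each) and did not pass (log2 fold change 0.07, SE 0.261, adjusted p = 0.817). With GC and length offsets it passed as higher (log2 fold change 0.67, adjusted p = 0.0337), while the log2 value was -0.04 without ARD1 replicate 1, in a range of adjusted p of 0.0337 to 0.936. CYP27C1, a retinoid desaturase, was not tested, with 0, 1 and 1 counts in the ARD1 libraries, against 12, 5 and 11 counts in the control libraries. With 30 counts in all it met the rule only through the control libraries and failed the filter on low counts, so no fold or test is given.

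Of the 7 UGT1A genes 6 fell, with a median log2 fold change of -1.62 over the 7. UGT1A10 (ENSG00000242515, chromosome 2, 233636454 to 233773305, plus strand), known from the gut more than from normal liver, stood highest per kilobase of exon in both groups. That rank is uncertain, since 70.7% of its exon bases are shared with other genes of the locus. UGT1A10 had 81.1, 84.3 and 78.0 CPM in the ARD1 libraries, against 258, 251 and 238 CPM in the control libraries (log2 fold change -1.62, SE 0.0702, adjusted p = 6.78e-11). UGT1A6, which conjugates small phenols, had 36.3, 35.1 and 34.6 CPM in the ARD1 libraries, against 127, 125 and 114 CPM in the control libraries (log2 fold change -1.79, SE 0.0760, adjusted p = 5.37e-11). UGT1A1, which conjugates bilirubin, had 36.6, 34.0 and 33.0 CPM in the ARD1 libraries, against 84.9, 86.9 and 80.3 CPM in the control libraries (log2 fold change -1.28, SE 0.0770, adjusted p = 2.39e-09). In each of these genes every ARD1 library lay below every control, and the gap was far wider than the spread inside either group. UGT1A8, another gut-type form, had 10.7, 7.72 and 7.85 CPM in the ARD1 libraries, against 39.2, 38.3 and 35.7 CPM in the control libraries (log2 fold change -2.11, SE 0.121, adjusted p = 1.38e-09). UGT1A3 was at low levels, with 0.627, 0.449 and 0.644 CPM in the ARD1 libraries, against 1.64, 2.37 and 1.66 CPM in the control libraries (log2 fold change -1.71, SE 0.311, adjusted p = 0.000208). Neither gene overlapped between the groups. UGT1A9, which conjugates bulky phenols, averaged 0.573 ± 0.216 CPM in the ARD1 libraries and 1.09 ± 0.0525 CPM in the control libraries (SD, n = 3 each) and fell by 0.92 on the log2 scale (adjusted p = 0.0304). Its call was lost without control replicate 1, control replicate 2, ARD1 replicate 2 or ARD1 replicate 3 (adjusted p = 0.0594, 0.0622, 0.0770 and 0.144), with library totals alone (log2 fold change -0.66, adjusted p = 0.103) and with DESeq2 (log2 fold change -0.95, adjusted p = 0.104), in a range of 0.0206 to 0.144. UGT1A7 had 0.752, 0.487 and 1.25 CPM in the ARD1 libraries, against 0.273, 0.950 and 0.628 CPM in the control libraries, overlapped and did not pass (log2 fold change 0.42, SE 0.456, adjusted p = 0.431).

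Between 40.6% (UGT1A7) and 70.7% (UGT1A10) of the exon bases of the UGT1A genes found in GENCODE 29 are shared with other genes on the same strand. Reads of the shared exons cannot be assigned to 1 of them, and UGT1A4 had only 9 counts in all, so the shared reads were not counted for every gene of the locus. With all UGT1A genes of the table summed to 1, those under the count threshold such as UGT1A4 and UGT1A5 included, the fall was 1.62 on the log2 scale (SE 0.0689, adjusted p = 5.53e-11). Ratios of counts within a library, given as a description, were not the same in the groups: UGT1A1 to UGT1A10 was 0.403 to 0.451 in the ARD1 libraries and 0.329 to 0.346 in the control libraries, and UGT1A6 to UGT1A10 was 0.416 to 0.447 in the ARD1 libraries and 0.479 to 0.499 in the control libraries. UGT1A8 to UGT1A10 was 0.0915 to 0.131 in the ARD1 libraries and 0.150 to 0.152 in the control libraries. None of these ratios overlapped between the groups: that of UGT1A1 was higher in every ARD1 library, and those of UGT1A6 and UGT1A8 were lower. Of the windows printed above, those of UGT1A1, UGT1A3 and UGT1A6 hold GTTAAT and that of UGT1A8 does not, and all 4 genes fell.

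**Figure D4:**
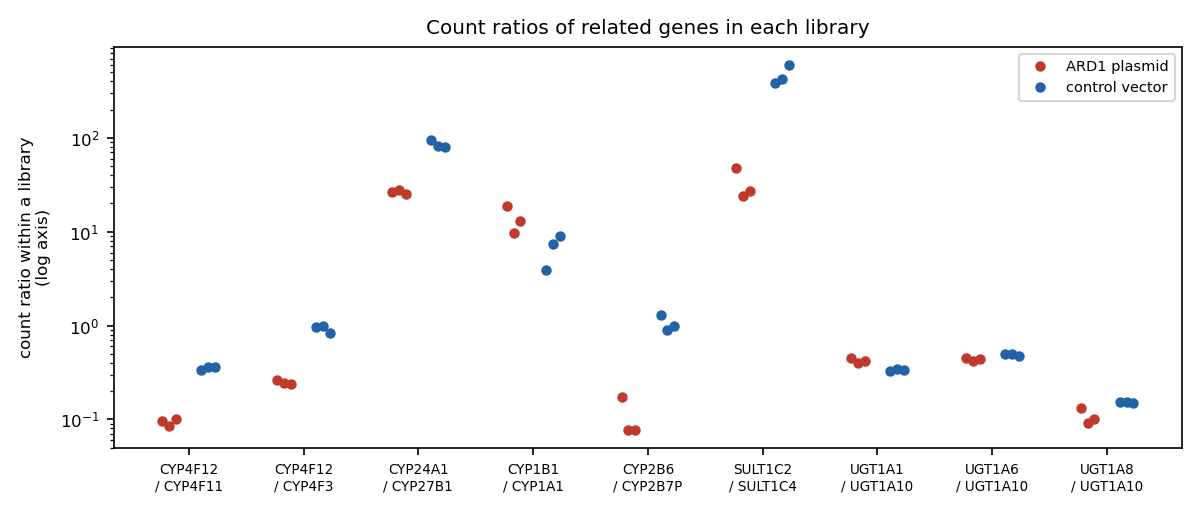
Count ratios of related genes are shown within each library on a log axis, ARD1 (left of each pair) and control (right). SULT1C2 to SULT1C4 was 23.9 to 47.2 in the ARD1 libraries and 389 to 594 in the control libraries, and CYP4F12 to CYP4F11 was 0.0852 to 0.102 in the ARD1 libraries and 0.337 to 0.363 in the control libraries.

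All 4 UGT2 genes with enough counts fell, with a median log2 fold change of -2.33, but UGT2A3 and UGT2B11 had enough only through the control libraries. UGT2B7 (ENSG00000171234, chromosome 4, 69051363 to 69112987, plus strand), which conjugates morphine and steroids, had 5.60, 7.42 and 7.20 CPM in the ARD1 libraries, against 19.3, 19.6 and 19.96 CPM in the control libraries. It fell with no overlap (log2 fold change -1.54, SE 0.120, adjusted p = 4.14e-08) and made up 87.6% to 91.7% of UGT2 counts in the ARD1 libraries and 82.0% to 83.6% in the control libraries. UGT2B15, which conjugates androgens, had 0.502, 0.412 and 0.684 CPM in the ARD1 libraries, against 1.41, 1.47 and 2.38 CPM in the control libraries (log2 fold change -1.72, SE 0.341, adjusted p = 0.000449). UGT2A3 had 0.251, 0.262 and 0.0805 CPM in the ARD1 libraries, against 1.64, 1.52 and 1.53 CPM in the control libraries (log2 fold change -2.94, SE 0.396, adjusted p = 1.26e-05). Neither overlapped between the groups, and ARD1 replicate 3 held UGT2A3 below the level of 3 counts. UGT2B11 was lower still, with 0.0418, 0 and 0.201 CPM in the ARD1 libraries, against 0.773, 0.855 and 0.493 CPM in the control libraries, and fell (log2 fold change -3.06, SE 0.659, adjusted p = 0.000864). Its fold rests on few counts, 6 in the ARD1 libraries and 46 in the control libraries. The log2 value was -2.47 without ARD1 replicate 2 and -4.82 without ARD1 replicate 3. The UGT2B genes are close copies of each other, so their single values are uncertain.

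Of the 6 SULTs, 5 were tested, 3 fell and 1 rose. SULT1C2 (ENSG00000198203, chromosome 2, 108288639 to 108309915, plus strand), a phenol sulfotransferase of fetal tissues, had 39.5, 35.8 and 40.0 CPM in the ARD1 libraries, against 124, 160.4 and 160.0 CPM in the control libraries. Control replicate 1 lay below the other controls, every ARD1 library lay far below all of them, and SULT1C2 fell (log2 fold change -1.95, SE 0.101, adjusted p = 4.61e-10). Its neighbour SULT1C4 (ENSG00000198075, chromosome 2, 108377911 to 108388057, plus strand) had 0.836, 1.498 and 1.49 CPM in the ARD1 libraries, against 0.318, 0.380 and 0.269 CPM in the control libraries. It rose with no overlap (log2 fold change 1.97, SE 0.386, adjusted p = 0.000392), the opposite direction to SULT1C2. SULT1C4 met the count rule only through the ARD1 libraries. SULT1B1, which sulfates thyroid hormones, had 0.125, 0.0375 and 0 CPM in the ARD1 libraries, against 1.41, 0.807 and 0.763 CPM in the control libraries and fell (log2 fold change -4.10, SE 0.636, adjusted p = 4.93e-05). With 4 counts in the ARD1 libraries and 65 in the control libraries, SULT1B1 met the count rule only through the controls. One ARD1 library held none, and the log2 value was -5.33 without ARD1 replicate 1. SULT2B1, which sulfates cholesterol, had 0.167, 0.524 and 0.0402 CPM in the ARD1 libraries, against 1.77, 0.902 and 0.718 CPM in the control libraries and fell (log2 fold change -2.15, SE 0.570, adjusted p = 0.00401), with a log2 value of -3.39 without ARD1 replicate 2. SULT2B1 too met the count rule only through the controls. SULT1A3, which sulfates catecholamines, averaged 0.579 CPM in the ARD1 libraries and 0.352 CPM in the control libraries and did not pass (log2 fold change 0.72, SE 0.401, adjusted p = 0.131), except with library totals alone (log2 fold change 0.98, adjusted p = 0.0370), in a range of 0.0370 to 0.390. Of its exon bases 70.7% are shared with SLX1A-SULT1A3, and SULT1A4 is a near-identical copy, so its counts are uncertain. SULT1A1, the main phenol sulfotransferase of liver, was not tested, with 5, 0 and 7 counts in the ARD1 libraries, against 3, 12 and 14 counts in the control libraries.

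Of 26 regulators of these genes 24 were tested, 10 passing as higher (41.7%) and 10 as lower (41.7%). Over all genes 32.4% were higher and 32.2% lower, and these shares apply to each list below. The median log2 fold change of the regulators was -0.08. That median was 0.18 with library totals alone and 0.12 with GC and length offsets. Among the AHR genes, TIPARP, an AHR target that represses the receptor, averaged 82.2 ± 3.22 CPM in the ARD1 libraries and 38.9 ± 3.38 CPM in the control libraries (SD, n = 3 each) and rose (log2 fold change 1.08, SE 0.0820, adjusted p = 3.10e-08). AHR averaged 187 ± 5.34 CPM in the ARD1 libraries and 161 ± 9.17 CPM in the control libraries (SD, n = 3 each) and passed (log2 fold change 0.22, SE 0.0694, adjusted p = 0.0137), but its sign turned with GC and length offsets (log2 fold change -0.08, adjusted p = 0.200), and it did not pass without ARD1 replicate 3 (log2 fold change 0.20, adjusted p = 0.0768), in a range of 8.69e-05 to 0.200. ARNT, its partner, and AHRR, its repressor, did not pass (log2 fold changes 0.05 and 0.19, adjusted p = 0.576 and 0.628). Of the receptors, NR1H4, the bile acid receptor FXR, averaged 0.682 CPM in the ARD1 libraries and 8.73 CPM in the control libraries (log2 fold change -3.65), and NR1H3, the oxysterol receptor LXR-alpha, 13.4 CPM in the ARD1 libraries and 81.3 CPM in the control libraries (log2 fold change -2.60). Both fell. NR1I2 fell at low levels (log2 fold change -1.29, adjusted p = 0.00613), and NR1I3 did not pass (-0.25, adjusted p = 0.601). HNF4A averaged 41.4 ± 1.64 CPM in the ARD1 libraries and 34.95 ± 1.80 CPM in the control libraries (SD, n = 3 each) and passed as higher (log2 fold change 0.25, SE 0.0815, adjusted p = 0.0160), though not without control replicate 2 or 3 or ARD1 replicate 1 or 2 (adjusted p = 0.0585, 0.115, 0.0712 and 0.0591, over all settings 8.13e-05 to 0.115). NFE2L2, the NRF2 factor that acts on many conjugating enzymes, averaged 296 CPM in the ARD1 libraries and 82.4 CPM in the control libraries and rose (log2 fold change 1.84).

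Of 8 tested electron donors of the P450s 1 was higher (12.5%) and 3 were lower (37.5%), where library totals alone gave 4 and 3 genes. POR, the reductase of microsomal P450s, averaged 309 ± 3.13 CPM in the ARD1 libraries and 327 ± 33.5 CPM in the control libraries (SD, n = 3 each) and did not pass (log2 fold change -0.08, SE 0.0765, adjusted p = 0.371). With GC and length offsets POR passed as higher (log2 fold change 0.34, adjusted p = 7.72e-06), in a range of 7.72e-06 to 0.918, so no direction is given for it. CYB5A did not pass (log2 fold change 0.08, adjusted p = 0.458) and its sign also turned with those offsets. CYB5B, the cytochrome b5 of the outer mitochondrial membrane, averaged 94.5 CPM in the ARD1 libraries and 393 CPM in the control libraries and fell (log2 fold change -2.06, SE 0.0704, adjusted p = 6.11e-12). FDX1, the ferredoxin that serves mitochondrial P450s such as CYP27A1 and CYP24A1, averaged 63.5 CPM in the ARD1 libraries and 31.6 CPM in the control libraries and rose (log2 fold change 1.01, SE 0.0774, adjusted p = 3.47e-08), while its reductase FDXR averaged 4.78 CPM in the ARD1 libraries and 9.56 CPM in the control libraries and fell (log2 fold change -0.999, SE 0.164, adjusted p = 8.52e-05). Of 10 genes of heme synthesis and breakdown, 9 were lower and none higher, with a median log2 fold change of -0.45, and PPOX (-0.72) and ALAD (-0.62) were 2 of these. With library totals alone 5 heme genes were lower and 1 higher. CYP51A1 did not pass, and the P450s whose symbols do not start with CYP, PTGIS and TBXAS1, which make prostacyclin and thromboxane, fell with log2 fold changes of -3.65 and -2.18.

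The cosubstrate of the UGTs is made by UGP2 and UGDH. UGDH averaged 483 ± 2.18 CPM in the ARD1 libraries and 986 ± 79.2 CPM in the control libraries (SD, n = 3 each) and fell (log2 fold change -1.03, SE 0.0727, adjusted p = 1.44e-08), and UGP2 averaged 89.7 ± 2.65 CPM in the ARD1 libraries and 156 ± 21.4 CPM in the control libraries (SD, n = 3 each) and fell (log2 fold change -0.80, SE 0.0915, adjusted p = 2.49e-06). UXS1, which uses up the same sugar nucleotide, rose (log2 fold change 0.33). In all, 3 of 5 genes of glucuronide supply were lower and 1 was higher, with a median log2 fold change of -0.17 that was 0.09 with library totals alone. Of 10 genes of sulfate supply, 4 were higher (40%) and 3 lower (30%), near the shares over all genes. Their median was 0.07, and -0.02 with GC and length offsets. The sulfate transporters moved apart, SLC26A2 with a log2 fold change of 0.99 and SLC26A1 with -1.20, and SLC35B2, which carries activated sulfate into the Golgi, fell (-0.97).

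Other enzymes and transporters of the same chain were mostly lower. Among 16 tested genes of other oxidation and hydrolysis 9 were lower and 1 was higher, with a median log2 fold change of -0.70. MAOA, which oxidises amines, averaged 37.3 CPM in the ARD1 libraries and 122 CPM in the control libraries and fell (log2 fold change -1.71). AADAC, an esterase, was the 1 gene that rose, at 5.34 CPM in the ARD1 libraries and 1.34 CPM in the control libraries (log2 fold change 1.98). Of 7 tested genes of other conjugation 4 were lower and 2 higher, and BAAT, HNMT and NNMT had log2 fold changes of -1.92, -1.83 and -1.51. Of 13 tested transporters 12 were lower and only ABCB1 was higher (log2 fold change 0.33), and their median was -0.50. Without TMM factors 5 were lower. ABCC3, which exports glucuronides, averaged 142 CPM in the ARD1 libraries and 409 CPM in the control libraries (log2 fold change -1.52), ABCG2, which exports sulfates, 49.8 CPM in the ARD1 libraries and 116 CPM in the control libraries (-1.22), and ABCC2 253 CPM in the ARD1 libraries and 436 CPM in the control libraries (-0.79).

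**Figure D5:**
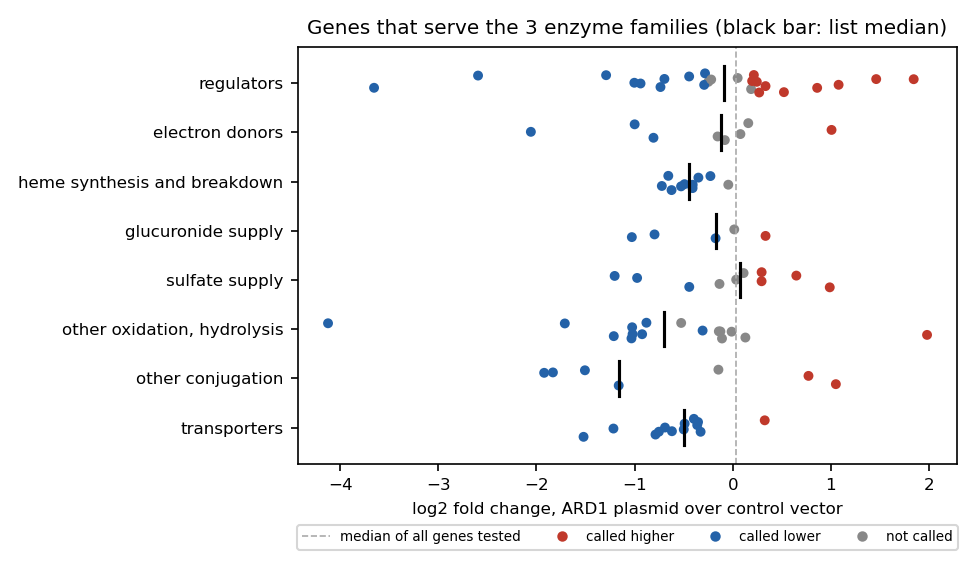
Each point is a tested gene of a list that serves the 3 families, placed by its log2 fold change of ARD1 plasmid over control vector and coloured by call, with the list median as a black bar. The heme list has 9 of 10 genes called lower, and the transporters have 12 of 13 called lower with ABCB1 at 0.33.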

How the data were processed

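Gene expression was measured by RNA sequencing after ribosomal RNA depletion with a directional kit, per the labels' protocols. Per the submitters' processing notes, cutadapt 4.6, STAR 2.7.11b and GRCh38 were used. Which program counted the reads, on which strand and with which annotation is not given in the sources used here. Whole-number counts per Ensembl gene, without normalization, were deposited by the authors in 1 table of 25071 genes, of which 25052 matched a symbol and 23129 were found in GENCODE 29.

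Groups and replicate numbers came from the sample titles. Genes were filtered by filterByExpr, which left 15816, scaled by TMM and tested with edgeR 4.0.16 (quasi-likelihood, R 4.3.3) over all 6 libraries without covariates, at a Benjamini-Hochberg adjusted p of 0.05. Counts of genes are descriptions, with no test over the list. Exon overlap was taken from GENCODE 29 and promoters from RefSeq. The genes and lists were chosen with earlier results of these data known.

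Values per library were given for the 12 largest rises (6 existed) and 12 largest falls past the threshold with a mean of 1 CPM or more in 1 group, and for the 8 highest levels per kilobase. Other genes were given more briefly or, for contrast within a role, in full. From each other list up to 3 changed genes, and the main regulators and donors, were named. Some genes that these rules name are not reported here.

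On counts simulated for this comparison (15505 genes), the test recovered 69.7%, 89.4% and 100% of genes changed 1.5-fold, 2-fold and 4-fold, and 6.11% of the 180 calls were unchanged genes. The changed genes numbered 66, 66 and 64, were balanced up and down, and left out low-count genes. In the data 64.6% of genes were called, so these shares need not hold for the data or for genes with few counts. Alternatives were RLE scaling, library totals alone, DESeq2 1.42.0, no filter, a minimum of 1 CPM in 3 libraries, a replicate block, loess offsets for GC content and length (span 0.3), and leaving out each library. Summing the UGT1A genes was added after seeing the data.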

Additional observations from a re-analysis of the deposited data

How the results depend on the processing

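Of 29 genes called, 25 were called in every setting that tested them among 13 alternatives, and all 29 kept their sign; CYP2U1, UGT1A9, CYP27B1 and CYP20A1 lost the call in some. Of 10 genes not called, 8 were called in at least 1 setting. The number called higher was 6, with 12 under library totals alone and 10 under GC and length offsets, and 5 to 7 when each library was left out. The number called lower was 23, with 22 to 24 when each library was left out, and 21 under library totals alone. Without control replicate 1 there were 6 higher and 23 lower. Library totals alone moved the median log2 fold change of all genes to 0.30, against 0.03 with TMM, and that of these genes to -0.60, against -0.86. Of calls over all genes 68.6% were then higher, against 50.2%, and of calls over these genes 36.4%, against 20.7%. The cause was not tested.

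Replicate numbers did not pair the samples: deviations of same-numbered libraries correlated at 0.0168, -0.0356 and 0.0342. With the replicate number as a block 8 genes were called higher and 23 lower, and 5203 and 5090 over all genes; CYP1A1 (log2 fold change 0.58, adjusted p = 0.0132) and CYP19A1 (log2 fold change 0.83, adjusted p = 0.0201) then passed. At this depth CYP2F1, CYP27C1 and SULT1A1 were too low to test with the filter.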
